A study of Homo sapiens with 9 samples.

Results

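The 46 genes described here encode human nuclear receptors, the steroid receptors included, and were taken as a fixed list of symbols from the 60708 genes counted. All 46 matched a gene in the counts. The cells are labelled MDA-MB-231, a long-established breast cancer line without estrogen receptor, progesterone receptor or amplified HER2 (triple-negative). The 9 RNA-sequencing libraries came from untreated cells, 3 labelled WT and 3 each labelled CS16 and CS19. The latter groups are described as *SNAI1*-KO clones of that line. *SNAI1* encodes a zinc finger repressor that drives epithelial-mesenchymal transition. According to the authors, each clone was grown from a single cell after CRISPR/Cas9 plasmids and a puromycin-selected repair plasmid had been introduced. Each is thus 1 clone, and its 3 libraries share that origin. The labels do not say whether the 3 libraries of a group were separate cultures, so p-values measure only the spread between these libraries.

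Nuclear receptors are transcription factors that share a zinc finger DNA-binding domain and, in most members, a pocket that binds a small lipid-soluble ligand such as a steroid, retinoic acid, thyroid hormone, a fatty acid or an oxysterol. Steroid receptors bind DNA as pairs of the same receptor, while the retinoic acid, thyroid hormone, vitamin D, liver X and PPAR receptors pair with a retinoid X receptor on repeats of a short DNA motif. Ligand binding exchanges corepressors for coactivators, and orphan receptors act without a known physiological ligand or as constant repressors or activators.

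The libraries held between 19527195 and 28627777 counted read pairs. *SNAI1* counts were not lower under the *SNAI1*-KO label: they were 16, 38 and 21 in WT, 26, 40 and 49 in CS16, and 57, 94 and 94 in CS19. The log2 fold change of the 6 libraries labelled *SNAI1*-KO against WT was 0.89 with an edgeR adjusted p of 0.0838, and that of CS19 against WT was 1.32 with an adjusted p of 0.031. Higher and lower therefore refer to the labels throughout. *CDKN2A*, a cell cycle inhibitor, had 0 counts in each WT library and 1106 to 1575 in the others, whereas *CD44*, a surface marker of basal breast cancer cells, had 11142 to 13853 counts in WT and at most 2 elsewhere. The 14 markers of mesenchymal basal MDA-MB-231 cells summed to between 7457 and 11656 CPM in WT, 486 to 519 in CS16 and 460 to 470 in CS19, so the libraries of both clones lacked most of the signal that defines the labelled line. Library WT-2 differed from the other WT libraries, since a chi-square test of counts over genes gave 235.9 and 284.5 per degree of freedom against WT-1 and WT-3, compared with 17.4 between those. Among the 37 receptors tested, WT-2 held the highest WT value for 24 and the lowest for 9. Over all 19631 genes tested it held the highest for 8578 and the lowest for 8053. Some results are therefore given both with and without it.

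Receptor levels were ordered by TPM, the number of transcripts on a common total after division of counts by exon length. In WT the glucocorticoid receptor gene *NR3C1* was highest at 87.1 ± 17.7 TPM (SD, n = 3), followed by the retinoid X receptor gene *RXRB* at 74.1 ± 25.1, *NR2F2*, which encodes the orphan receptor COUP-TFII, at 65.4 ± 36.6, and *NR1D2*, which encodes the heme-binding clock repressor REV-ERBβ, at 65.0 ± 19.7. These neighbours lay within their spread and cannot be ranked among themselves. In CS16 *NR1D2* was highest at 47.7 ± 4.02 TPM, then *NR2F6*, a COUP-TF relative that represses transcription, at 40.4 ± 2.87, *NR3C1* at 32.3 ± 4.46 and the retinoic acid receptor gene *RARB* at 27.5 ± 5.25. CS19 held *NR1D2* at 42.9 ± 1.10 TPM, *NR2F6* at 38.2 ± 5.00, *NR2F1*, which encodes COUP-TFI, at 33.5 ± 4.87 and *RARB* at 33.3 ± 5.78. Thus *RARB* stood at rank 28 of 46 in WT and at rank 4 in either clone. The summed TPM of all 46 receptors ranged from 494.2 to 874.8 in WT and from 346.5 to 450.7 in the 6 other libraries. In bulk RNA a lower level cannot separate fewer cells that express a gene from less RNA per cell.

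**Figure D1:**
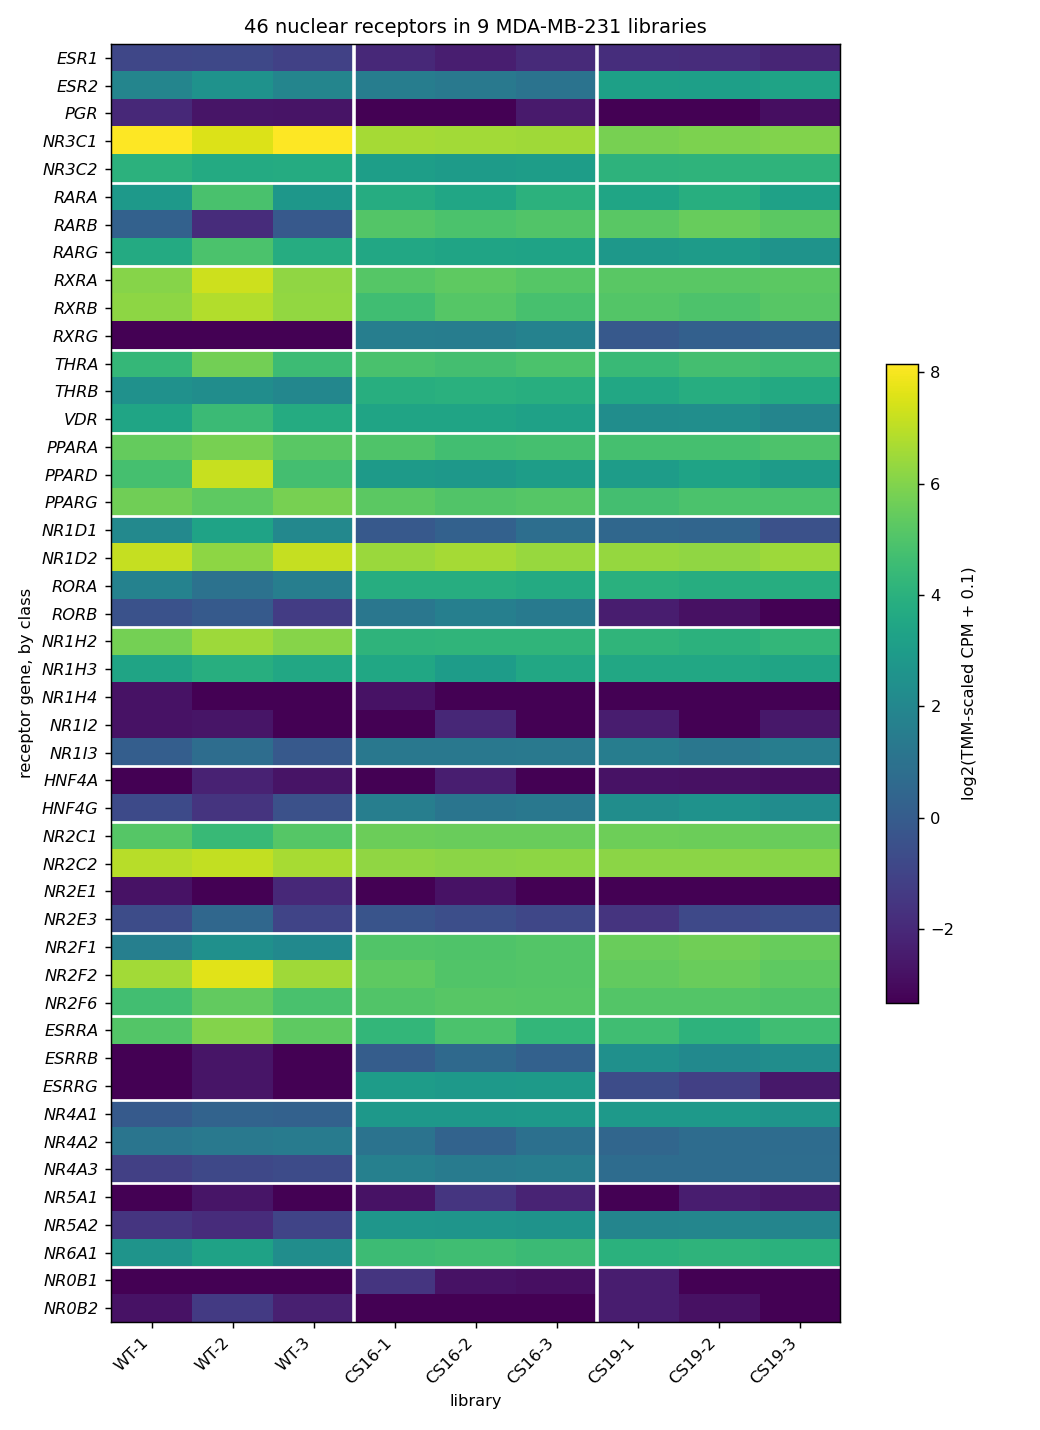
Heat map of the 46 receptor genes (rows, ordered by class with white lines between classes) in the 9 libraries (columns), coloured by log2(CPM + 0.1) after TMM scaling. *RXRG*, *ESRRB* and *ESRRG* are dark in WT and brighter in at least 1 clone, *NR3C1* is brightest in WT, and *PPARD* is bright in library WT-2.

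Of the 46 receptors, 37 had enough counts to be tested in the comparison of the 6 libraries labelled *SNAI1*-KO with WT. A receptor was said to change at an edgeR adjusted p below 0.05 over all 19631 genes tested, and was called when its log2 fold change was also at least 2 in size. Of the 37 receptors, 14 were higher in the clones, or 37.8%, and 15 were lower, or 40.5%. Among all genes tested the shares were 31.1% changed and higher and 32.6% changed and lower. Calls of higher receptors numbered 10, or 27% of those tested, beside 12.6% of all genes, and calls of lower receptors numbered 2, or 5.41%, beside 14.3% of all genes. The receptors' median log2 fold change was -0.17, also with *RXRG* set at its lower bound, and their median size of change was 1.42, compared with 0.97 over all genes tested. Without WT-2 the called receptors numbered 10 higher and 0 lower, and the shares of all genes were not taken under that setting.

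Each clone was also compared with WT in a fit of its own. In CS16 11 of 37 receptors tested were called higher, or 29.7%, beside 11.8% of all genes, and 2 lower, or 5.41%, beside 15.3%. In CS19 8 of 35 were called higher, or 22.9%, beside 12.0% of all genes, and 3 lower, or 8.57%, beside 14.4%. Both comparisons share the same 3 WT libraries, so they are not independent of each other. The 2 receptors tested in CS16 but not in CS19, *RORB* and *ESRRG*, had too few counts in the latter and WT. Read against the shares of all genes, the share of receptors called higher was larger than the background in both clones and the share called lower was smaller, and these differences were not tested.

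**Figure D2:**
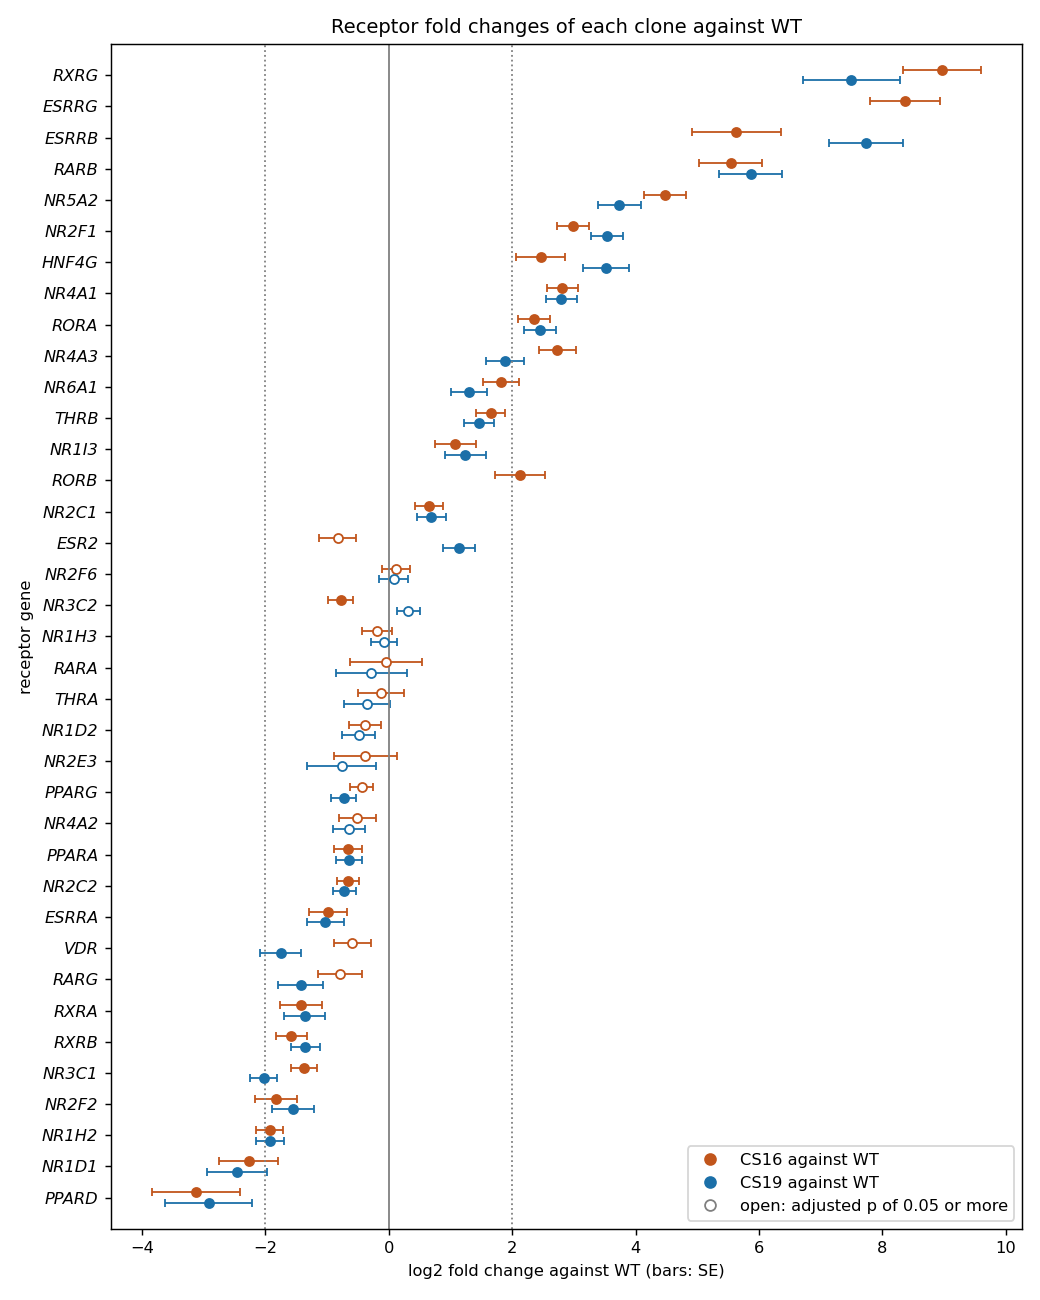
Log2 fold change against WT (x axis) of each receptor tested (y axis) in CS16 (orange) and CS19 (blue), with bars of 1 SE, dotted lines at a log2 fold change of 2 in either direction and open points where the adjusted p was 0.05 or more. *RXRG*, *ESRRG*, *ESRRB* and *RARB* lie farthest to the right and *PPARD* and *NR1D1* farthest to the left, while *ESR2* and *NR3C2* lie on opposite sides of 0 in the clones.

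The estrogen receptor gene *ESR1*, which encodes the receptor that defines luminal breast cancer, was close to the detection floor of 3 counts in every group. Its counts were 9, 8 and 7 in WT, 3, 2 and 4 in CS16, and 4, 4 and 4 in CS19, so the WT libraries lay above all others by a few counts. *ESR1* did not pass the filter on low counts. When all genes with a count were tested its log2 fold change was -1.36 ± 0.53 (SE) with an adjusted p of 0.0481. The progesterone receptor gene *PGR*, an estrogen-induced steroid receptor, had 3, 1 and 1 counts in WT, 0, 0 and 2 in CS16 and 0, 0 and 1 in CS19, at or under the floor in every library.

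*ESR2*, which encodes estrogen receptor β, gave 74, 101 and 70 counts in WT, 58, 50 and 49 in CS16, and 198, 203 and 309 in CS19. The CS19 libraries were thus the highest and the CS16 libraries the lowest, with no overlap of the scaled values between any groups. *ESR2* was higher in CS19 than in WT (log2 fold change 1.14 ± 0.26, edgeR adjusted p = 0.00789), and was at -0.83 ± 0.30 in CS16, where the adjusted p was 0.0505. The direct comparison of CS16 with CS19 gave -1.98 ± 0.16 (adjusted p = 1.54e-06). Pooling both clones against WT gave 0.44 ± 0.54 with an adjusted p of 0.502, a mean over libraries on both sides of WT.

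Counts of *NR3C1*, the receptor for cortisol, were 5652, 3262 and 5566 in WT, 1968, 2003 and 2309 in CS16, and 1247, 1389 and 1903 in CS19. Every WT library was above every other library, and CS19 was below CS16. On the scale of CPM, counts scaled to library size with TMM factors, it stood at 250.2 ± 55.6 in WT, at 94.7 ± 2.45 in CS16 and at 59.7 ± 2.85 in CS19 (mean ± SD of 3 libraries). For both clones against WT its log2 fold change was -1.70 ± 0.22 (edgeR adjusted p = 3.35e-05), and in CS19 alone it reached -2.03 ± 0.22 (adjusted p = 0.000179). *NR3C2*, the mineralocorticoid receptor gene that binds aldosterone and cortisol, gave 338, 229 and 259 counts in WT, 172, 165 and 207 in CS16 and 374, 404 and 541 in CS19. It was lower in CS16 than in WT (-0.78 ± 0.20, adjusted p = 0.0131), a change not past the threshold in 5 of 14 alternatives, such as leaving out any CS16 library (adjusted p = 0.06 to 0.0669), and was at 0.32 ± 0.19 in CS19 (adjusted p = 0.204).

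The retinoic acid receptors diverged. *RARB*, which encodes RARβ, a receptor that retinoic acid itself induces in many cells, gave 22, 3 and 16 counts in WT, 695, 627 and 835 in CS16, and 824, 1027 and 1191 in CS19. All 6 libraries of the clones were above every WT library, and WT-2 was the lowest. *RARB* stood at 0.693 ± 0.470 CPM in the 3 WT libraries (mean ± SD) and at 36.4 ± 5.13 in the 6 of the clones, a log2 fold change of 5.68 ± 0.41 (SE throughout, edgeR adjusted p = 2.52e-07), and it was 5.24 ± 0.23 without WT-2. *RARG*, the form abundant in epithelia, was at -1.10 ± 0.30 with both clones pooled against WT (adjusted p = 0.00662). Its counts were 261, 521 and 266 in WT, 239, 215 and 250 in CS16 and 152, 178 and 177 in CS19. The pooled value was -0.61 ± 0.24 without WT-2 (adjusted p = 0.04). In CS16 alone *RARG* did not pass the threshold (-0.79 ± 0.35, adjusted p = 0.0939). *RARA*, the broadly expressed form, had 142, 513 and 131 counts in WT and 229 to 412 in the clones, and its log2 fold change was -0.19 ± 0.42 (adjusted p = 0.716). Without WT-2, whose *RARA* level was 4.26 times the mean of the other WT libraries, it was 0.87 ± 0.22 (adjusted p = 0.00418). Of the exonic bases of *RARA*, 21.4% are shared with antisense transcripts, and the counting did not use strand.

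The *RARB* gene lies on chromosome 3 at 25174332-25597932 (GRCh38, forward strand). Retinoic acid receptors bind direct repeats of a short motif, and a repeat of GTTCA before a start site of *RARB* is a textbook retinoic acid response element. The letters sought here were those of this known element, so their presence in *RARB* was set by the choice of letters. The 250 bases before that start site, chr3:25428013-25428262 on the forward strand of GRCh38.p14, are shown because this window was the only 1 of 96 windows of 41 receptors that held, on either strand, GTTCA followed by 6 bases of any kind and a second GTTCA. Of all 35116 RefSeq windows of this length, 17 held it, or 0.0484%, and they belonged to 16 genes. Apart from *RARB* and *CYP26A1*, counts of these genes are not reported here. Another of the 16 was *CYP26A1*, which encodes an enzyme that breaks down retinoic acid and is itself induced by it. *CYP26A1* had 0 counts in all WT libraries, 93, 99 and 123 in CS16 and 81, 79 and 100 in CS19. Its window, chr10:93073643-93073892 on the forward strand, holds the repeat on the opposite strand. Capitals mark both copies of the motif, and the first base of the repeat is at position -52 from the start site in *RARB* and at position -90 in *CYP26A1*.
RARB: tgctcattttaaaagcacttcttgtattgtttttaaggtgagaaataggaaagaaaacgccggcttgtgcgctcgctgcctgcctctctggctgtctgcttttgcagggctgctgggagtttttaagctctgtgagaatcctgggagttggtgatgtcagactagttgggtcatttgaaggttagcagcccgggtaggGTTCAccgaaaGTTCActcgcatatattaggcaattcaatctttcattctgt
CYP26A1: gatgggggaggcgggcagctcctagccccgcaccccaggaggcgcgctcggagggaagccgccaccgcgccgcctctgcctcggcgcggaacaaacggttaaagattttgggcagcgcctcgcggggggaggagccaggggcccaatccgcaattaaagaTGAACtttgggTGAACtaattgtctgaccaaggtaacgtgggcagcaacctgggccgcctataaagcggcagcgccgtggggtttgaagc
A match of letters is a description of the window and was not measured as a binding site. Gene-level counts do not separate the start sites of *RARB*.

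The retinoid X receptors, which are the obligate partners of the retinoic acid, thyroid hormone, vitamin D, PPAR and liver X receptors, also moved in both directions. *RXRG*, the form mainly found in muscle and brain, had 0 counts in every WT library, 59, 59 and 83 in CS16 and 18, 24 and 35 in CS19. WT lay entirely below the clones, and CS19 entirely below CS16. Against a floor of 3 counts per WT library *RXRG* was at least 19.0-fold higher in CS16 and at least 6.35-fold higher in CS19, and the clones differed by a log2 fold change of 1.56 ± 0.22 (edgeR adjusted p = 0.000173). *RXRA* and *RXRB*, the widely expressed forms, changed by -1.42 ± 0.22 and -1.49 ± 0.18 on the log2 scale (adjusted p = 0.000164 and 1.92e-05). Without WT-2 *RXRA* was at -0.95 ± 0.09 and *RXRB* at -1.26 ± 0.13. *RXRB* counts were 1487, 2032 and 1508 in WT, 503, 731 and 703 in CS16 and 751, 720 and 1115 in CS19, and no scaled value of the clones reached that of a WT library. Per length, *RXRB* stayed above *RXRG* in CS16, at 23.0 ± 1.19 against 3.49 ± 0.551 TPM (SD, n = 3).

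Of the thyroid hormone receptor genes, *THRB* rose and *THRA* did not pass the test. *THRB*, the form prominent in liver and pituitary, stood at 5.57, 4.91 and 3.85 CPM in WT, 14.4, 15.3 and 14.6 in CS16 and 11.5, 14.3 and 12.6 in CS19 (log2 fold change 1.53 ± 0.19, edgeR adjusted p = 2.51e-05). *THRA*, the form of heart and brain, was at -0.27 ± 0.27 (adjusted p = 0.397). Its sign turned without WT-2, to 0.28 ± 0.14 (adjusted p = 0.0921). Against the remaining WT libraries, *THRA* in CS16 alone was at 0.40 ± 0.12 (adjusted p = 0.0083). The vitamin D receptor gene *VDR*, which mediates the response to calcitriol, stood at 10.6, 22.5 and 13.1 CPM in WT, 10.2, 10.4 and 9.35 in CS16, and 4.77, 5.03 and 3.60 in CS19. CS19 was lowest in every library. *VDR* was at -1.09 ± 0.36 with the clones pooled against WT (adjusted p = 0.0205), and did not pass the threshold without WT-2 (-0.72 ± 0.37, adjusted p = 0.107). Taken alone, CS19 was lower than WT (-1.75 ± 0.33, adjusted p = 0.0031). CS16 did not pass the threshold (-0.59 ± 0.30, adjusted p = 0.134). *VDR* was 1.17 ± 0.14 higher in CS16 than in CS19 (adjusted p = 5.16e-05).

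All 3 PPARs, the fatty acid receptors that govern lipid oxidation and storage, were lower with the clones pooled against WT. *PPARD*, the ubiquitous form, gave 557, 2595 and 516 counts in WT, 155, 146 and 208 in CS16, and 178, 232 and 240 in CS19. Library WT-2 was far above its 2 companions, yet those also exceeded every library of the clones. The log2 fold change was -3.05 ± 0.45 (edgeR adjusted p = 0.000108), and without WT-2 it was -1.73 ± 0.13 (adjusted p = 5.23e-07), no longer past the fold needed for a call. *PPARA*, which controls hepatic fatty acid oxidation, and *PPARG*, the regulator of fat cells, changed by -0.68 ± 0.16 and -0.61 ± 0.16 (adjusted p = 0.00252 and 0.00595). In CS16 alone *PPARG* did not pass the threshold (-0.44 ± 0.19, adjusted p = 0.09). Its change in CS19 alone (-0.73 ± 0.20, adjusted p = 0.0156) was not past it in 5 of 14 alternatives. For *PPARA* this held in 6 of 14 alternatives in either clone alone. *PPARG* counts were 1032, 690 and 1084 in WT, 772, 681 and 886 in CS16 and 575, 688 and 905 in CS19, so that the scaled level was 0.30 ± 0.09 log2 units higher in CS16 than in CS19 (adjusted p = 0.0208).

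REV-ERB receptors repress, and ROR receptors activate, transcription from the same sites in clock genes. *NR1D1*, which encodes REV-ERBα, gave 84, 173 and 77 counts in WT, 17, 23 and 42 in CS16 and 29, 29 and 19 in CS19, a log2 fold change of -2.40 ± 0.36 (edgeR adjusted p = 0.000114) and of -1.84 ± 0.30 without WT-2 (adjusted p = 0.000248). All WT libraries were above all others. Its exons share 473 bases, or 18.0%, with *THRA* on the opposite strand, and read pairs that overlapped both genes there were not counted. *NR1D2* gave 2838, 1309 and 2734 counts in WT, 1748, 2075 and 2078 in CS16 and 1762, 1780 and 2724 in CS19. Its groups overlapped, and its log2 fold change of -0.47 ± 0.19 had an edgeR adjusted p of 0.0494, just inside the threshold. It was not past the threshold in 13 of 17 alternatives, among them -0.33 without WT-1 (adjusted p = 0.211) and -0.31 without WT-3 (adjusted p = 0.235), was -0.72 ± 0.10 without WT-2 (adjusted p = 6.7e-05), and passed it in neither clone alone (adjusted p = 0.257 in CS16 and 0.158 in CS19).

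*RORA*, the ROR form active in cerebellum and immune cells, rose in both clones. Its counts were 67, 34 and 57 in WT, 284, 298 and 323 in CS16, and 345, 324 and 429 in CS19 (log2 fold change 2.37 ± 0.21, edgeR adjusted p = 1.46e-06). No library of the clones overlapped with WT, and no difference between the clones passed the test (-0.10 ± 0.10, adjusted p = 0.495). *RORB*, the form of retina and brain, was high in 1 clone and low in the other. It gave 13, 15 and 6 counts in WT, 46, 63 and 63 in CS16, but 2, 1 and 0 in CS19. It was higher in CS16 than in WT (2.13 ± 0.40, adjusted p = 0.00308) and, from 3 counts in all CS19 libraries, 65.2-fold higher in CS16 than in CS19 (95% exact interval for counting error 21.9 to 319).

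Among the sterol and xenobiotic receptors, *NR1H2*, which encodes the ubiquitous oxysterol receptor LXRβ, was lower in the clones. Its counts of 1107, 1537 and 1295 in WT compared with 358, 382 and 451 in CS16 and 399, 376 and 589 in CS19 (log2 fold change -1.96 ± 0.15, edgeR adjusted p = 5.57e-07). *NAPSA*, on the opposite strand, shares 22.1% of its exonic bases. *NR1H3*, which encodes LXRα of liver and macrophages, was at -0.17 ± 0.18 (adjusted p = 0.445). *NR1I3*, which encodes the xenobiotic sensor CAR, rose from 20, 28 and 16 counts in WT to between 47 and 85 in the clones (1.13 ± 0.27, adjusted p = 0.00303), although 20.4% of its exons overlap *TOMM40L*. Against WT in a single clone, *NR1I3* was not past the threshold in 6 of 14 alternatives for CS16 and 3 for CS19. *NR1H4* and *NR1I2*, the bile acid receptor FXR and the drug sensor PXR, had at most 3 counts in any library.

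*NR2F1* and *NR2F2*, which encode the closely related orphan receptors COUP-TFI and COUP-TFII of embryonic patterning, moved in opposite directions. *NR2F1* gave 61, 94 and 82 counts in WT, 666, 665 and 843 in CS16, and 1030, 1156 and 1389 in CS19, with WT below CS16 and CS16 below CS19 in every library. Its log2 fold change was 3.26 ± 0.26 against WT (edgeR adjusted p = 7.39e-07) and -0.54 ± 0.07 for CS16 against CS19 (adjusted p = 0.000112). *NR2F2* gave 1910, 3528 and 1769 counts in WT, 806, 690 and 854 in CS16 and 937, 1079 and 1207 in CS19 (-1.72 ± 0.24, adjusted p = 5.77e-05). It was at -1.24 ± 0.12 without WT-2 (adjusted p = 3.83e-06). The third relative, *NR2F6*, was at 0.07 ± 0.17 (adjusted p = 0.746), with 32.4 ± 8.99 CPM in WT and 33.9 ± 1.63 in the clones. Without WT-2 *NR2F6* passed the threshold, at 0.31 ± 0.10 (adjusted p = 0.0214).

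Estrogen-related receptors resemble estrogen receptors in sequence, do not bind estrogen, and regulate mitochondrial and energy genes. *ESRRA*, the most widely expressed of them, was lower in the clones (-1.04 ± 0.23, edgeR adjusted p = 0.00222). Against WT in a single clone, *ESRRA* was not past the threshold in 2 of 14 alternatives for CS16 and 4 for CS19. *ESRRB*, known for its role in pluripotent cells, gave 0, 1 and 0 counts in WT, 19, 30 and 27 in CS16 and 119, 97 and 147 in CS19. *ESRRG*, known from heart, kidney and brain, gave 0, 1 and 0 counts in WT, 166, 152 and 191 in CS16 and 12, 8 and 2 in CS19. Each of these 2 genes was therefore strongest in a different clone. From 1 count in WT, the ratio of *ESRRB* was 65.5 in CS16 (95% exact counting interval 11.4 to 2620) and 275 in CS19 (49.0 to 10891). For *ESRRG* it was 439 in CS16 (78.4 to 17356) and 16.7 in CS19 (2.69 to 688). The clones differed by -2.07 ± 0.22 for *ESRRB* (adjusted p = 1.23e-05) and 4.67 ± 0.33 for *ESRRG* (adjusted p = 4.51e-07), where positive values mean higher in CS16.

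Estrogen-related receptors bind a single motif, AGGTCA, with added bases before it. The form AAAGGTCA occurred on either strand in 367 of all 35116 windows, or 1.05%, and in 3 of the 96 receptor windows, or 3.12%. One of these precedes a start site of *ESRRG* at chr1:216503246-217137755 (reverse strand), and it is shown because *ESRRG* was the only called receptor that had it. The window is chr1:217076993-217077242 on the reverse strand of GRCh38.p14, with the matching letters in capitals beginning 62 bases before the start site.
ESRRG: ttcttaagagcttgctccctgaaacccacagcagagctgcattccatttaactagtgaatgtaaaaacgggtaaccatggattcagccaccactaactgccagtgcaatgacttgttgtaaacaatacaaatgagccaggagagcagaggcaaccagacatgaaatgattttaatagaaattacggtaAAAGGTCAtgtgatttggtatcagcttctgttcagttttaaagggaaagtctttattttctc
The plain motif AGGTCA, which the longer form contains, was found in 15.6% of receptor windows and in 12.1% of all windows.

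The orphan *NR4A* genes are induced within minutes by many stimuli. *NR4A1* gave 17, 20 and 21 counts in WT, 138, 145 and 184 in CS16 and 156, 171 and 190 in CS19 (log2 fold change 2.77 ± 0.21, edgeR adjusted p = 5.03e-07). Its levels in the clones were nearly equal, at 7.002 ± 0.287 and 6.91 ± 0.618 CPM. *NR4A3* gave 7, 8 and 10 counts in WT, 64, 56 and 70 in CS16 and 34, 36 and 50 in CS19 (2.33 ± 0.37, adjusted p = 0.000197), and it was higher in CS16 than in CS19 (0.85 ± 0.20, adjusted p = 0.00635). *NR4A2*, the form of dopaminergic neurons, was at -0.62 ± 0.24 (adjusted p = 0.0409), and did not pass the threshold in 9 of 17 alternatives, one of which left out WT-2 (-0.61 ± 0.26, adjusted p = 0.0543). Antisense transcript *NR4A1AS* shares 10.3% of the exonic bases of *NR4A1*.

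*NR5A2* and *HNF4G* are receptors of endodermal tissues. *NR5A2*, which encodes LRH-1, stood at 0.247, 0.171 and 0.411 CPM in WT, 6.42, 6.20 and 5.93 in CS16 and 3.63, 3.77 and 3.67 in CS19. WT lay below both clones and CS19 below CS16 in every library, with a log2 fold change of 4.12 ± 0.40 for both clones (edgeR adjusted p = 3.20e-06) and of 0.74 ± 0.14 between them (adjusted p = 0.00132). *HNF4G*, a relative of the hepatocyte regulator *HNF4A*, gave 10, 4 and 12 counts in WT, 59, 44 and 59 in CS16, and 106, 131 and 144 in CS19 (3.05 ± 0.47, adjusted p = 0.000136), and was lower in CS16 than in CS19 (-1.05 ± 0.18, adjusted p = 0.000612). *HNF4A* itself had at most 2 counts in any library. *NR6A1*, the germ cell nuclear factor that represses pluripotency genes, rose by 1.55 ± 0.27 (adjusted p = 0.000318), from 121, 172 and 95 counts in WT to between 351 and 576 in the clones, and it was 0.52 ± 0.08 higher in CS16 than in CS19 (adjusted p = 0.000448).

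SNAI1 binds the E-box CAGGTG, which was therefore sought on both strands of the same windows. It occurred in 17.5% of all windows and in 11 of 96 receptor windows, or 11.5%. Counted by gene, 8 of the 41 receptors with a window held the E-box in any of their windows. Of the 10 receptors called higher, 9 had a window and 2 of these held the E-box, *NR5A2* and *RARB*. The *NR5A2* window, chr1:200042341-200042590 on the forward strand of GRCh38.p14, is shown with the E-box in capitals, read on the opposite strand and beginning 57 bases before the start site.
NR5A2: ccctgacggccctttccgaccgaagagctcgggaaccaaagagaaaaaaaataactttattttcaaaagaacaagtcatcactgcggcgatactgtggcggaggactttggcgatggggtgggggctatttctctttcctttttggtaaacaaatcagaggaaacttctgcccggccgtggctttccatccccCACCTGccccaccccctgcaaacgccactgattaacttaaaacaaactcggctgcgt
The 2 receptors called lower had windows without it. The estrogen receptor palindrome, GGTCA and TGACC with 3 bases of any kind between them, was present in 0.0399% of all windows and in 0 of the receptor windows.

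Of the remaining orphan receptors, *NR2C1* rose slightly and *NR2C2* fell slightly. These testicular receptors bind as a pair to direct repeats. *NR2C1* gave 710, 377 and 679 counts in WT and 967 to 1418 in the clones (log2 fold change 0.64 ± 0.17, edgeR adjusted p = 0.00588), and *NR2C2* gave 2476, 2413 and 1947 in WT and 1490 to 2115 in the clones (-0.72 ± 0.13, adjusted p = 0.000386). Against WT in a single clone, *NR2C1* was not past the threshold in 6 of 14 alternatives for CS16 and 5 for CS19. For *NR2C2* this held in 5 and 4 of 14. The photoreceptor gene *NR2E3* was at -0.60 ± 0.43 (adjusted p = 0.243). Members with at most 5 counts in any library were *NR2E1*, a neural stem cell repressor, *NR5A1*, the regulator of steroidogenic tissues, and *NR0B1* and *NR0B2*, inhibitors that lack a DNA-binding domain. Together with *ESR1*, *PGR*, *NR1H4*, *NR1I2* and *HNF4A* these were the 9 receptors not tested, and their highest count was 9.

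By position on GRCh38, several receptor genes lie near each other, and those of chromosomes 17 and 3 are described here. Others are also close, such as *NR5A1* (124481236-124507420, reverse) and *NR6A1* (124517275-124771311, reverse) on chromosome 9. On chromosome 17, *THRA* (40058290-40093867, forward) and *NR1D1* (40092793-40100589, reverse) overlap at their ends, and *RARA* (40309180-40357643, forward) follows. On chromosome 3, *NR1D2* (23945286-23980617, forward), *THRB* (24117153-24495756, reverse) and *RARB* (25174332-25597932, forward) follow each other. On chromosome 3 *RARB* and *THRB* rose and *NR1D2* was at -0.47. On chromosome 17 *NR1D1* fell while *THRA* and *RARA*, at -0.27 and -0.19, did not pass the test. Without WT-2, *THRA* was at 0.28 and *RARA* at 0.87, and of these only *RARA* passed the threshold (edgeR adjusted p = 0.00418).

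**Figure D3:**
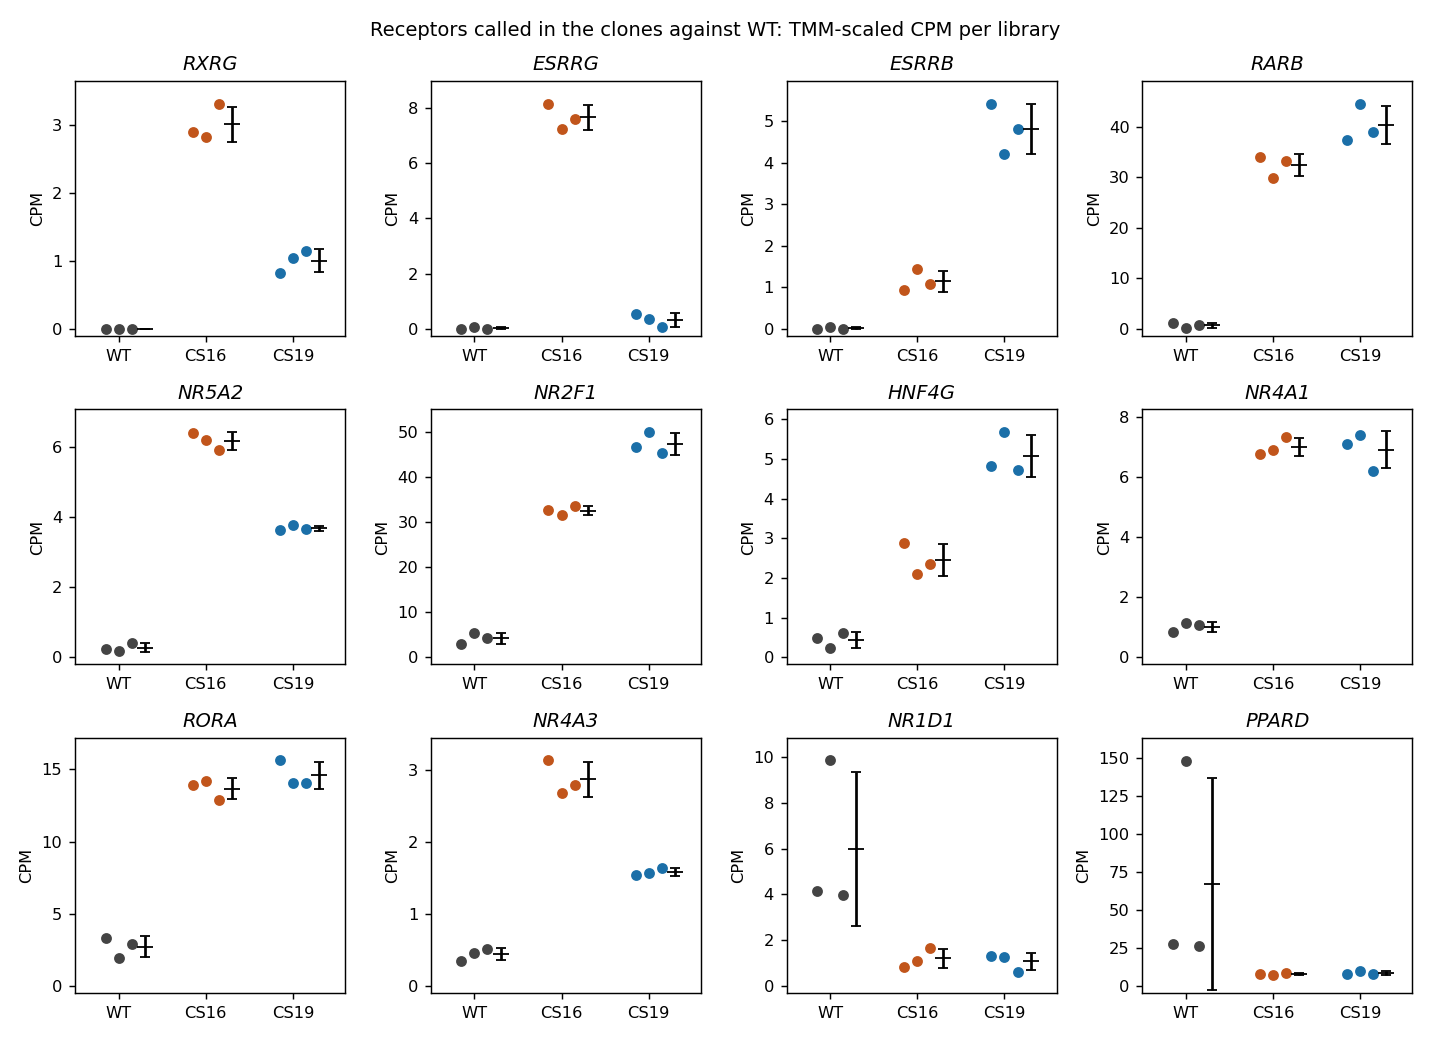
TMM-scaled CPM (y axes, linear, different in each panel) of the 12 receptors called in the libraries labelled *SNAI1*-KO against WT, for each library of WT, CS16 and CS19 (points), with the group mean and bars of 1 SD beside them. In each panel the 3 WT points are separate from the 6 others, *ESRRG* and *ESRRB* are high in different clones, and WT-2 is the highest WT point of *PPARD* and *NR1D1*.

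Between the clones, 37 receptors were tested and 17 differed. Without a WT library in the fit, 10 were higher in CS16, or 27%, beside 14.7% of all genes, and 7 were lower, or 18.9%, beside 12.7% of all genes. When the 3 groups were fitted together and shared 1 estimate of spread, 6 receptors differed, and the share of all genes was not taken in that fit. The differences in *RORB*, *ESRRG* and *ESRRB* were past a log2 fold change of 2, and that in *ESR2* just missed it. The other 13 were between 0.28 and 1.56 in size. The smallest were *NR2F2* (-0.28 ± 0.09, edgeR adjusted p = 0.037), *PPARG* and *RARB* (-0.32 ± 0.09, adjusted p = 0.0145), and these did not pass the threshold in 6, 5 and 3 of 14 alternatives. *RARG* was 0.64 ± 0.13 higher in CS16 (adjusted p = 0.00248). Receptors that differed strongly from WT but for which no difference between the clones passed the test were *NR4A1* (0.02 ± 0.13), *PPARD* (-0.19 ± 0.13), *NR1H2* (-0.01 ± 0.09), *RORA* and *RXRA* (-0.06 ± 0.08).

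**Figure D4:**
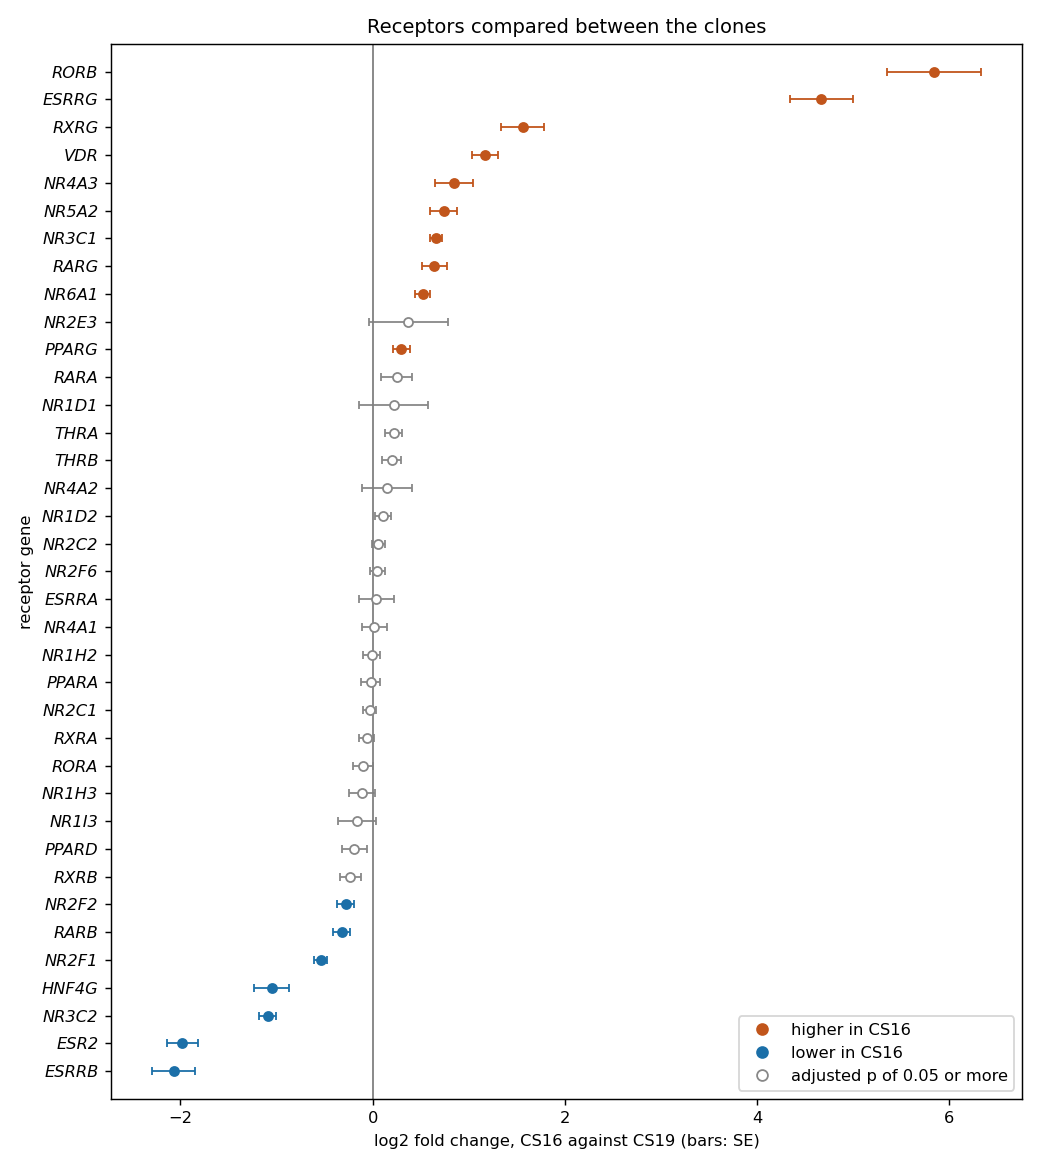
Log2 fold change of CS16 against CS19 (x axis, bars of 1 SE) for the 37 receptors tested (y axis), filled in orange where higher and in blue where lower in CS16 at an adjusted p below 0.05, open otherwise. *RORB* and *ESRRG* lie farthest to the right and *ESRRB* and *ESR2* farthest to the left.

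Receptors act through cofactors, and 35 of the genes listed were of that kind. Counts of this and the following lists stand beside the shares of all genes tested, 31.1% changed and higher, 32.6% changed and lower, 12.6% called higher and 14.3% called lower. Of 19 coactivators tested, 3 were higher and 8 lower in the libraries labelled *SNAI1*-KO, and of 16 corepressors 5 were higher and 5 lower. The PGC-1β gene *PPARGC1B*, a partner of the estrogen-related receptors, rose from 75, 133 and 83 counts in WT to 972, 1033 and 1316 in CS16 and 597, 639 and 756 in CS19 (log2 fold change 2.88 ± 0.36, edgeR adjusted p = 3.00e-05). *ACTN4*, an actin-binding protein also reported as a coactivator, fell by 3.13 (SE 0.30, adjusted p = 2.84e-06), and was at -2.43 ± 0.10 without WT-2, whose 43828 counts compare with 16786 and 17405 in the other WT libraries. *BCOR*, a Polycomb-linked corepressor, rose by 2.20 ± 0.27 (adjusted p = 2.37e-05), from 376 to 814 counts in WT to between 2646 and 3606. *HR*, a corepressor of hair follicle and brain, fell by 3.79 (SE 0.61, adjusted p = 0.000196) from 13, 58 and 19 counts in WT to at most 4, and was at -2.79 ± 0.54 without WT-2. Of 9 receptor chaperones, the heat shock proteins that hold steroid receptors in a ligand-ready state among them, 2 were higher, 1 was lower and 0 were called.

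The lists of steroid receptor targets held genes in both directions. Of 14 glucocorticoid-responsive genes tested, 4 were higher and 9 lower, with a median log2 fold change of -2.68. Called and higher were *KLF9*, *TSC22D3* and *ZBTB16*, which encode transcriptional regulators that glucocorticoids induce in many cells. *TSC22D3* gave 290, 189 and 285 counts in WT and 1068 to 1895 in the clones, and *KLF9* gave 67, 42 and 48 in WT and 921 to 1280 in the clones (log2 fold change 4.11 ± 0.22, edgeR adjusted p = 2.30e-08). *ZBTB16* gave 1, 0 and 0 counts in WT and 47 to 82 in the clones. Lower were the secreted protein gene *CRISPLD2* (-5.01 ± 0.27), the metallothionein gene *MT2A* (-4.66 ± 0.32) and *ERRFI1*, an EGFR inhibitor (-3.77 ± 0.24), with adjusted p of 2.61e-08, 2.00e-07 and 8.61e-08. These directions stood beside lower *NR3C1* counts in every library of the clones.

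Of 14 estrogen-responsive genes tested, 5 were higher and 8 lower, with *ESR1* near the floor throughout. *STC2*, a secreted glycoprotein, rose from 20, 25 and 20 counts in WT to between 1094 and 1977 (log2 fold change 5.68 ± 0.22, edgeR adjusted p = 1.93e-09). *GREB1*, an estrogen receptor cofactor, gave 16, 38 and 30 counts in WT, 587, 545 and 685 in CS16 and 247, 364 and 450 in CS19 (3.79 ± 0.44, adjusted p = 1.44e-05). *RERG*, a small GTPase, rose by 4.43 ± 0.62 (adjusted p = 6.49e-05). The EGFR ligand gene *AREG* fell from 1108, 1015 and 1318 counts to at most 12 (-7.59 ± 0.31, adjusted p = 3.18e-09), *SERPINA1*, a protease inhibitor, from 585, 732 and 620 to at most 2, and *CTSD*, a lysosomal protease, by 3.38 (SE 0.18, adjusted p = 1.87e-08).

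Of 9 retinoic acid-responsive genes tested, 5 were higher and 3 lower, and all 8 were called, with a median log2 fold change of 2.05. *CYP26A1* was at least 26.0-fold higher against the floor. *RAI2*, a retinoic acid-induced gene, went from 0, 1 and 0 counts to between 38 and 59. *TGM2*, a transglutaminase, fell from 16723, 29086 and 16944 counts in WT to between 63 and 103 (-8.36 ± 0.32, adjusted p = 1.93e-09). *CRABP2*, the carrier that delivers retinoic acid to the receptors, and *CYP26B1*, a second degrading enzyme, also changed, by -2.34 ± 0.35 and -2.01 ± 0.28 (adjusted p = 0.000121 and 6.97e-05), the latter by -1.50 ± 0.20 without WT-2.

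Of 7 vitamin D-responsive genes tested, 2 were higher and 5 lower. *CYP24A1*, which inactivates calcitriol and is the standard readout of its receptor, gave 52, 45 and 33 counts in WT and at most 2 in the clones (edgeR adjusted p = 1.26e-06), 107-fold lower from 3 counts in all 6 libraries (95% exact interval for counting error 36 to 528). The thrombin receptor gene *THBD* fell from 773, 1353 and 752 counts to at most 3, and the carbonic anhydrase gene *CA9* from 40, 61 and 53 to at most 1. *BMP6*, a growth factor, and *SEMA6D*, a guidance ligand, rose by 3.42 ± 0.22 and 3.40 ± 0.33 (adjusted p = 8.91e-08 and 3.11e-06). Of 8 thyroid hormone genes tested 3 were higher and 3 lower. *SLC16A10*, a transporter of aromatic amino acids and thyroid hormone, rose from 26, 19 and 35 counts in WT to between 1376 and 2454 (5.74 ± 0.23, adjusted p = 2.50e-09), whereas *DIO1* and *DIO2*, the deiodinases that activate the hormone, changed by -2.19 ± 0.42 and -3.29 ± 0.43 (adjusted p = 0.000774 and 4.12e-05), and *DIO1* by -1.35 ± 0.33 without WT-2.

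Of 9 liver X receptor genes tested, 2 were higher and 4 lower. *ABCA1*, the cholesterol exporter, gave 3987, 3510 and 3253 counts in WT and 57 to 96 in the clones (log2 fold change -5.86 ± 0.16, edgeR adjusted p = 2.58e-10). *SREBF1*, the regulator of fatty acid synthesis, and *ABCG1*, a second exporter, changed by -2.95 ± 0.31 and -2.09 ± 0.32, with adjusted p of 6.27e-06 and 0.000123, and *SREBF1* was at -2.18 ± 0.09 without WT-2. Of 11 PPAR targets 5 were higher and 4 lower. *ANGPTL4*, a lipase inhibitor, and *ACADVL*, a mitochondrial dehydrogenase of fatty acid oxidation, fell by 3.96 (SE 0.30, adjusted p = 3.68e-07) and by 2.02 (SE 0.17, adjusted p = 1.07e-06), and *PLIN1*, a lipid droplet protein, rose by 2.45 ± 0.46 (adjusted p = 0.00068) from 8, 5 and 2 counts to between 23 and 46.

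Of 18 clock genes tested, 4 were higher and 10 lower. *NPAS2*, an activator and partner of BMAL1, gave 867, 1678 and 721 counts in WT and 61 to 131 in the clones (log2 fold change -4.01 ± 0.30, edgeR adjusted p = 3.38e-07). *PER3*, a period repressor, changed by -4.24 ± 0.32 (adjusted p = 3.86e-07) and *CIART*, a repressor of the clock activator, by -2.15 ± 0.55 (adjusted p = 0.00506). *HLF*, a clock-controlled transcription factor, rose from 5, 1 and 6 counts in WT to between 46 and 107 (3.94 ± 0.41, adjusted p = 6.11e-06). Of 5 bile acid and xenobiotic genes tested 2 were higher, 2 were lower and 2 were called. These were *ABCB1*, the multidrug exporter, with 0, 1 and 0 counts in WT and 483 to 1052 in the clones, and its phospholipid-exporting neighbour *ABCB4*, with 5, 0 and 5 counts in WT and 19 to 55 in the clones.

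**Figure D5:**
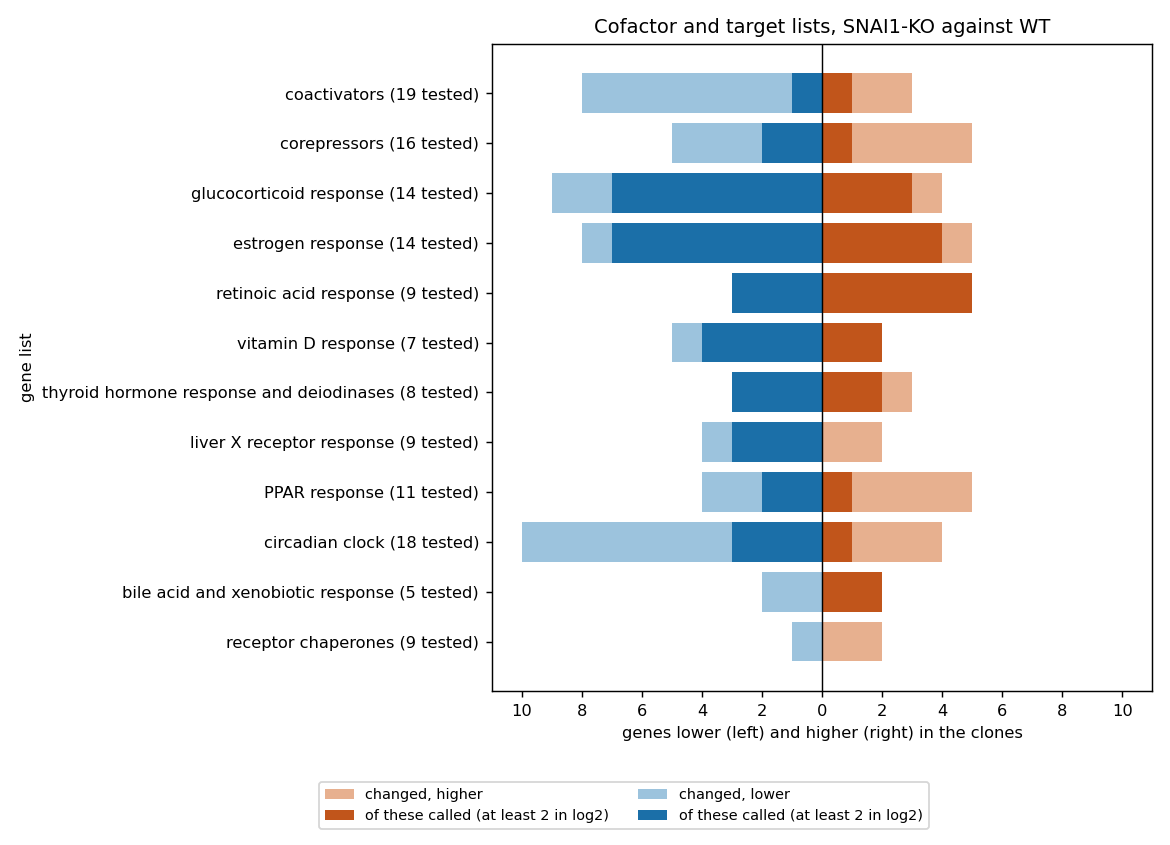
Number of genes higher (right) and lower (left) in the libraries labelled *SNAI1*-KO against WT at an edgeR adjusted p below 0.05, for 12 lists of receptor cofactors and targets (y axis, with the number tested). Dark bars are the part past a log2 fold change of 2. Every list holds genes in both directions.

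Markers of other tissues were measured because several of the receptors that rose are known from kidney, liver, nerve or steroidogenic cells, and the part of other cell types in the results was not tested. Summed over 12 embryonic kidney markers the level was 76.1 to 120 CPM in WT, 144 to 151 in CS16 and 150 to 166 in CS19, and 7 of 10 tested were higher in the clones. The 10 neural markers summed to between 5.08 and 9.41 CPM in WT, 21.9 and 28.5 in CS16 and 30 and 32.7 in CS19, with *NEUROD1* at 0 in WT and CS16. The 12 hepatocyte markers summed to between 29.4 and 42.5 CPM in WT and at most 0.735 and 1.08 CPM in CS16 and CS19, but *SERPINA1* alone stood at 34.2 ± 6.76 CPM in WT (mean ± SD of 3 libraries), and *ALB* and 5 others were at 0 there. Of the 10 adrenocortical markers, *MC2R* and *CYP11B1* were at 0 in every group, and the sums were 23.3 to 56.1, 52.0 to 61.5 and 47.4 to 58.2 CPM. Luminal mammary markers, 14 in number and *ESR1* among them, summed to between 1497 and 2215 CPM in WT, 53.8 and 54.0 in CS16 and 68.2 and 81.0 in CS19, with 10 of 10 tested lower. The haematopoietic list was at 7.55 to 8.56, 2.67 to 3.29 and 3.31 to 3.77 CPM, and the stromal fibroblast list at 17.6 to 47.1, 64.1 to 68.4 and 12.9 to 15.8 CPM, in WT, CS16 and CS19.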

How the data were processed

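RNA was measured by sequencing of ribosome-depleted, stranded total RNA from 9 libraries, 3 each of WT, CS16 and CS19, grouped by their labels. The authors trimmed reads with Trimmomatic 0.36, aligned them with STAR 2.7.2b in 2 passes to GRCh38.p13 and counted read pairs per gene of GENCODE release 38 with featureCounts of Subread 2.0.0, requiring both mates, no chimeric pair and a mapping quality of at least 30, without using strand. The deposited values are raw counts. Pairs that overlap 2 genes were not counted, and reads shared with a near-identical copy were lost to the mapping quality minimum. Depth was 19527195 to 28627777 counts per library, and the floor of 3 counts was 0.0982 to 0.171 CPM. Intervals and floors cover counting error only, since molecules were not tagged.

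All genes were fitted together with edgeR 4.0.16 (filterByExpr, TMM, quasi-likelihood F test) in R 4.3.3, only the groups compared entering each fit, and p-values were adjusted by Benjamini-Hochberg over all genes tested. A gene changed at an adjusted p below 0.05 and was called when its log2 fold change was also at least 2 in size. Standard errors were derived from the F statistic. The procedure was tested on simulated data. CPM used TMM factors, TPM the summed exon length. A fold against a group at 0 counts was bounded with 3 counts per library, and ratios resting on 1 to 3 counts have exact 95% intervals. Promoter windows of 250 bases came from RefSeq on GRCh38.p14, and 41 of the 46 receptors had one. Motifs were sought on both strands.

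The receptors, the 12 cofactor and target lists and the 8 marker lists were chosen with earlier results of these data known. Text names *ESR1*, *ESR2* and *PGR*, every receptor called against WT or changed between the clones, the 5 with the highest median TPM, up to 3 called genes per list and direction with the smallest adjusted p, and other receptors by class. Of 164 list names 1 did not match. Some genes that this rule names are not reported here. The liver X receptor list includes *NR1H3*, and *KLF9* and *HR* stand on 2 lists each. Alternatives were DESeq2 1.42.0, RLE and upper-quartile scaling, other count filters, glmTreat, a log2 cut-off of 1, a fit of all 3 groups, a replicate block, and leaving out each library and the 100 most abundant genes. Same-numbered libraries of different groups had correlations of their deviations between -0.206 and 0.19, so the numbers were not taken as pairs.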

Additional observations from a re-analysis of the deposited data

Results flagged for a closer look

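For 17 receptors the difference between the clones, tested directly by edgeR over all genes, passed an adjusted p of 0.05. Their log2 fold changes of CS16 against CS19 were, for those higher in CS16, 5.84 for *RORB*, 4.67 for *ESRRG*, 1.56 for *RXRG*, 1.17 for *VDR*, 0.85 for *NR4A3*, 0.74 for *NR5A2*, 0.66 for *NR3C1*, 0.64 for *RARG*, 0.52 for *NR6A1* and 0.30 for *PPARG*. For those lower in CS16 they were -2.07 for *ESRRB*, -1.98 for *ESR2*, -1.09 for *NR3C2*, -1.05 for *HNF4G*, -0.54 for *NR2F1*, -0.32 for *RARB* and -0.28 for *NR2F2*. Each clone is 1 line of cells, so a difference between the clones cannot be told apart from one between any 2 single-cell isolates.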

How the results depend on the processing

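The fold changes of named receptors, other than those named only by class, gave 1481 values under the alternatives. Of these, 1386 kept their direction and their side of the threshold, and 71 kept the direction and were no longer past it. Another 15 newly passed it. The 9 others reversed, each a fold change that passed the threshold neither as reported nor under that alternative. These were *RORB* for both clones against WT (-0.81 in the shared fit), *NR2F6* without WT-1 (-0.08, and -0.03 for CS16 and -0.09 for CS19, with ranges over the libraries left out that reached 0.31, 0.34 and 0.30 without WT-2), and, between the clones, *NR1D1* (-0.11 and -0.08 without the third library of CS16 or CS19, at most 0.42) and *NR4A1* (-0.01 under upper-quartile scaling, -0.01 and -0.05 without those libraries, at most 0.08). Receptors named only by class are outside these counts, and some of them reversed past the threshold without WT-2. *RARA* went from -0.19 to 0.87 for both clones against WT (edgeR adjusted p = 0.00418). *THRA* went from -0.13 to 0.40 in CS16 (adjusted p = 0.0083). The count of receptors called in the libraries labelled *SNAI1*-KO against WT was 12, and it was 19 under glmTreat and 23 with a log2 cut-off of 1. That cut-off gave 21 for CS16 against WT, 23 for CS19 against WT and 8 for CS16 against CS19, in place of 13, 11 and 3. Of 17 receptors that differed between the clones, 6 did so when all 3 groups shared 1 fit. Ordered by CPM in place of TPM, 2 of the 5 most abundant receptors were shared. Leaving out each library in turn gave 10 to 13 called and 27 to 29 changed receptors for both clones against WT, 12 to 15 and 20 to 33 for CS16, 9 to 12 and 21 to 31 for CS19, and 2 to 4 and 15 to 19 between the clones. Without WT-2, 33 receptors changed in CS16 and 31 in CS19. The shares of all genes were not taken under the alternatives. These counts therefore cannot separate a shift of the receptors from one of all genes. Of 43 named cofactor and target genes, 43 still changed without WT-2 and 38 were still called, with *DIO1*, *CYP26B1*, *ACADVL* and *TSC22D3* among those no longer past the fold. The replicate block changed none of these counts by over 1.5 times, with 12 called and 27 changed for both clones against WT and 3 and 14 between the clones. Counts under 10 limit *ESR1*, *PGR* and the other receptors not tested. The causes of these shifts were not tested, other than that 2 alternatives are different rules by construction. The cut-off of 1 is less strict. The glmTreat test asks for a log2 fold change beyond 1, and its calls did not need the cut-off of 2. For the side of the threshold of a single receptor, glmTreat is stricter than the main test.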
